A study of Mus musculus with 7 samples.

Results

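Young B1 elements are the short interspersed elements (SINEs) that RepeatMasker names B1_Mm, B1_Mus1 and B1_Mus2. All rows of the deposited repeat count table with one of these names were taken, which gave 208882 loci of 3494995 LINE, SINE and LTR loci in all. B1_Mus1 had 95081 loci, B1_Mus2 had 70891 and B1_Mm had 42910. The reads came from whole testes of mouse embryos at E14.5 (embryonic day 14.5), with 1 pair of testes per library. There were 3 libraries labelled wild-type (WT) and 4 labelled *Glis3* mutant, all on a C57BL/6 background. Mutant mice were homozygous for the *Glis3zf5* allele, a germline deletion around exon 4 that disrupts the DNA-binding domain of GLIS3 in every cell of the embryo.

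B1 elements descend from 7SL RNA, the RNA of the signal recognition particle. A complete copy carries an internal RNA polymerase III promoter made of an A box and a B box, ends in an A-rich tail, and has no protein-coding sequence, so that it depends on LINE-1 proteins to be copied. Copies within genes are also transcribed by RNA polymerase II, as passengers of introns and untranslated regions (UTRs). Libraries were depleted of ribosomal RNA and not selected for poly-A tails, so unspliced and untailed RNA was sequenced as well. Strand was not kept, so RNA of an element and RNA running through it from either side cannot be told apart, and only uniquely mapped reads were counted.

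The sequences of 5 loci show what such elements look like in these data. They are among the 2 loci of each name with the most reads of those of at least 130 bases with a sequence in a GENCODE M21 non-coding exon (build mm10) and no overlap with a UTR or coding exon. Each is written on the strand of the element, and capitals mark the first match to the A box core (TGGCNNA) and the first match to the B box core (GTTCNA). The *Malat1* and *Taf1d* copies hold a further match to GTTCNA downstream, left in lower case. In the *Sfpq* copy the match begins at base 97, at that downstream stretch, and not near bases 67 and 68 where the marked matches of *Taf1d* and *Malat1* begin.
B1_Mm in *Plaa*, chr4:94568029-94568161, plus strand: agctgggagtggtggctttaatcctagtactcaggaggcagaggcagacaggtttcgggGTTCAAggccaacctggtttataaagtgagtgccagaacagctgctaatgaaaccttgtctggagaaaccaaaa
B1_Mus1 in *Malat1*, chr19:5801969-5802116, minus strand: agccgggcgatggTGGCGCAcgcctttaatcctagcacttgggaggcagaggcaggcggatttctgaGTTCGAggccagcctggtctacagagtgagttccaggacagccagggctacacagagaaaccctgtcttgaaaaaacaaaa
B1_Mus1 in *Taf1d*, chr9:15316264-15316414, plus strand: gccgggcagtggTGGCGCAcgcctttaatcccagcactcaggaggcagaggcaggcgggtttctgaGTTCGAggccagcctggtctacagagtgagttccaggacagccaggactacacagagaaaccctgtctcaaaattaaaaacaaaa
B1_Mus2 in *Dleu2*, chr14:61633227-61633371, minus strand: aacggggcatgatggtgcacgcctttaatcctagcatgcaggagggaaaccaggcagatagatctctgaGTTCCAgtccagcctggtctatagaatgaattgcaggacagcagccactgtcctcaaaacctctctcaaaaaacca
B1_Mus2 in *Sfpq*, chr4:127026505-127026654, minus strand: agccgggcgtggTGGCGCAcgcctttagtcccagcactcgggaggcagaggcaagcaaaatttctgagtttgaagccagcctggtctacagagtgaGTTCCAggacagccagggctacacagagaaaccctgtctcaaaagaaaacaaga

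The *Malat1* and *Taf1d* copies were 90.8% identical, and the *Malat1* and *Sfpq* copies, which bear different names, were 90.1% identical. The *Plaa* and *Dleu2* copies were the least alike, at 66.9%, and neither held the A box letters. Across all young B1 loci of at least 130 bases with a sequence (3362 loci, 2.14% of that length), 55.9% held the A box letters and 89.8% the B box letters on the element's own strand. On the other strand these shares were 2.94% and 1.67%. Among older B1 loci of that length (B1_Mur1 to B1_Mur4, B1F, B1F1 and B1F2; 3432 with a sequence), 27.3% held the A box letters and 59.1% the B box letters. In windows of 142 bases taken from 32851 RefSeq promoters (GRCm38.p6), 13.04% held the A box letters and 8.83% the B box letters on the gene's strand. The young loci had a mean of 2.84 ± 1.96 CpG sites (SD over loci), and the older loci 1.08 ± 1.22. These shares describe only loci that lie in annotated transcripts or promoter windows.

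Between 3454317 and 4670830 reads per library lay in LINE, SINE and LTR loci. *Glis3* itself was measured at 7.63, 6.89 and 2.91 FPKM (fragments per kilobase of transcript, scaled to library size) in wild-type replicates 1 to 3, and at 3.86, 3.26, 2.90 and 2.66 FPKM in mutant replicates 1 to 4 (log2 fold change -0.69, adjusted p = 0.268 from limma). Wild-type replicate 3, as labelled, fell inside the mutant range. Without it the log2 fold change of *Glis3* was -1.09 (adjusted p = 0.00992 from limma). Then 722 of 14019 genes passed the threshold, in place of 1 of 13988. Reads of exons left intact by the allele count towards its FPKM. Markers of Sertoli cells (summed FPKM 232.6 to 370.4 over 7 genes) and fetal Leydig cells (1654 to 3155 over 6 genes) were high in every library, and those of mesonephros low (7.40 to 10.8 over 4 genes). The 8 germ cell markers summed to 1337, 985.9 and 579.5 FPKM in the wild-type libraries and to between 470.1 and 620.8 in the mutants. All 8 had a negative log2 fold change (median -0.97), and none was at 0. An unadjusted p under 0.05 in limma was found for 7 of them, where 17.0% of all genes tested had one. None of the 8 passed the threshold in limma. The 6 fetal Leydig cell markers all had a positive log2 fold change (median 0.47), 5 with an unadjusted p under 0.05 and none past the threshold in limma. In whole testes, fewer cells of a type and less RNA per cell cannot be told apart.

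Most young B1 loci carried no read. At least 1 read in any library was found at 72602 loci (34.8%), and 136280 had none. The mean over libraries reached 10 reads at 2710 loci, 100 reads at 165 loci and 1000 reads at 4 loci. These 165 loci, 0.0790% of the members, held 25.4% of all young B1 reads. Young B1 loci took 4.95%, 4.46% and 4.71% of all LINE, SINE and LTR reads in wild-type and 4.56%, 4.71%, 4.68% and 4.48% in mutant libraries. The groups overlapped: wild-type libraries averaged 4.71% ± 0.248 (SD, n = 3) and mutants 4.61% ± 0.108 (SD, n = 4).

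Reads of young B1 elements were concentrated in genes. A locus was counted as inside when it overlapped the span of a gene of the RefSeq FPKM table by at least 1 base. By this rule 93642 young B1 loci (44.8%) lay inside, against 36.7% of all LINE, SINE and LTR loci, and the share rose from 40.7% for B1_Mm to 44.3% for B1_Mus1 and 48.1% for B1_Mus2. Inside loci held 88.5% of the young B1 reads. A read was found at 54.7% of the loci inside and at 18.5% of those outside. Over all LINE, SINE and LTR loci, 81.5% to 84.1% of the reads of a library lay inside, and a read was found at 64.2% of the loci inside and at 30.4% of those outside. Per kb, the level over all loci was 2.79 CPM inside and 0.224 outside, against 3.33 and 0.353 for young B1 loci, so reads of all repeats were concentrated in genes. Farther than 10 kb from any gene span, 13.6% of 76594 loci had a read and together held 2.23% of the young B1 reads.

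By the GENCODE annotation, which was applied to all members and differs from the RefSeq spans, the level was highest in exons. The 2085 loci that overlap a GENCODE UTR, 0.998% of the members, held 31.2% of the young B1 reads, with 27.6 reads per locus and library. The 103228 loci in GENCODE introns held 51.6% of the reads, with 0.922 reads per locus and library. Loci between GENCODE genes had 0.120 reads per locus and library. Inside the RefSeq spans, loci on the same strand as their gene (40235) and on the opposite strand (52197) held nearly equal shares of the reads, 42.6% and 42.7%. Per locus and library this was 1.96 reads on the same strand and 1.51 on the opposite strand. Spans of genes that averaged 0.5 FPKM or more held 76619 of the inside loci and 87.6% of all young B1 reads, and 62.1% of these loci had a read, against 21.3% in spans of genes under 0.5 FPKM.

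Per kb of element, young B1 loci had fewer unique reads than older B1 loci. Inside genes, the level of young B1 loci was between 3.16 and 3.64 CPM (reads scaled to the effective library size) per kb in the 7 libraries, and that of older B1 loci between 5.07 and 5.85. Outside, the ranges were 0.323 to 0.409 and 0.563 to 0.683 CPM per kb. The ranges of the young and older loci did not overlap in either place. B1_Mm, B1_Mus1 and B1_Mus2 were close to each other inside genes, at means of 3.44, 3.26 and 3.36 CPM per kb over all libraries, and their ranges overlapped. Outside, B1_Mus2 was highest at 0.394, against 0.333 for B1_Mm and 0.335 for B1_Mus1. These are levels of uniquely mapped reads, and how many reads of each name mapped to several places was not tested.

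**Figure D1:**
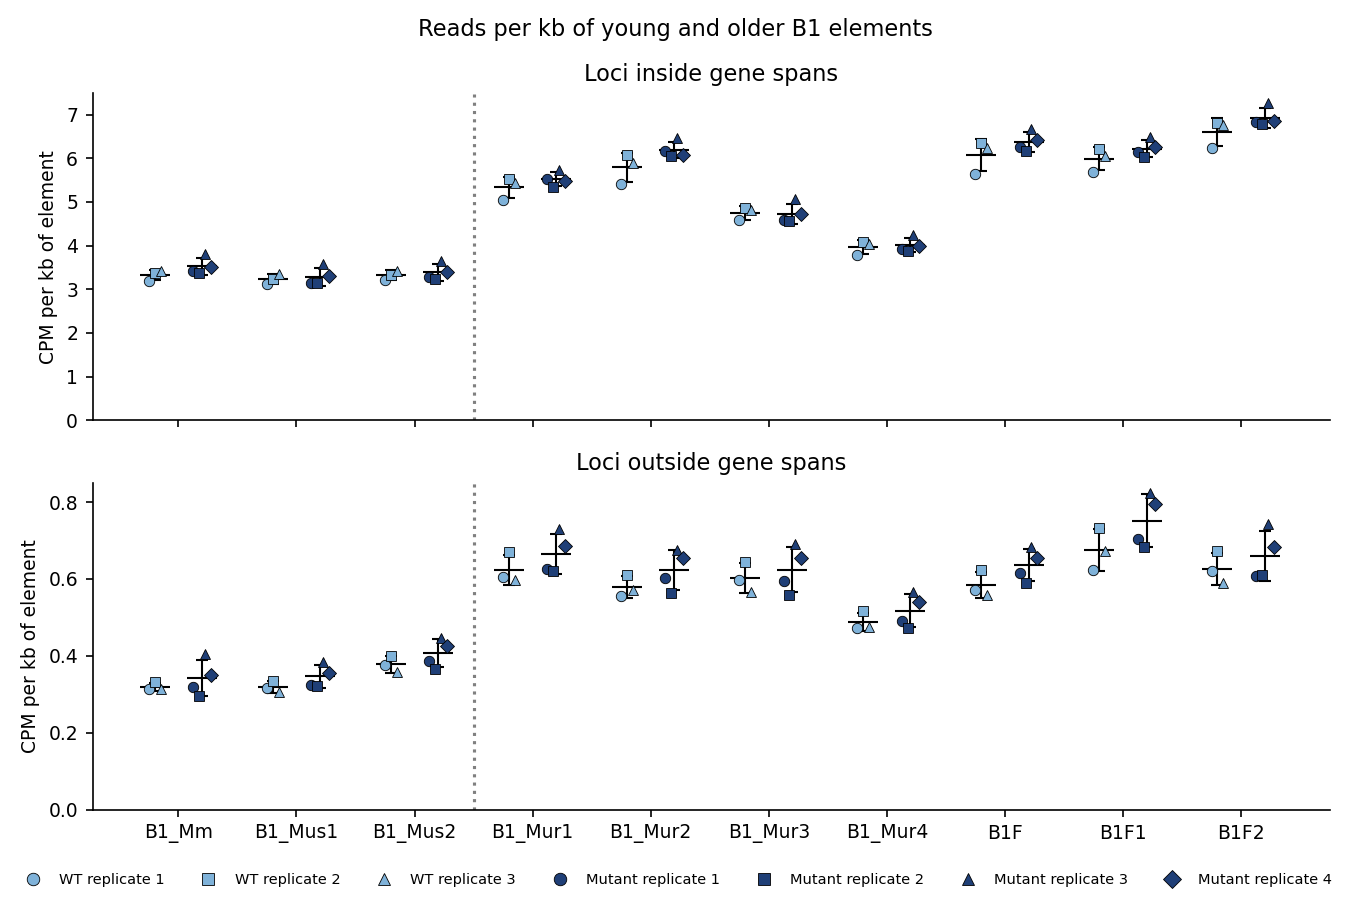
Reads per kb of element (CPM per kb) for the 3 young B1 names (left of the dotted line) and 7 older B1 names, inside (top) and outside (bottom) gene spans. Each symbol is 1 library, and horizontal marks with bars are the mean ± SD of each genotype; the young names sit between 3.11 and 3.80 CPM per kb inside genes, and in each library they are below every older name in both places.

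The first comparison asked whether young B1 elements as a whole were more or less abundant in *Glis3* mutant testes. No difference larger than the spread between libraries was found. All members together summed to 44167, 46175 and 46775 CPM in the wild-type libraries and 45189, 44735, 51265 and 47366 CPM in the mutants. Mutant replicate 3 was the highest library. Mutant replicate 4 was also above every wild-type library, and mutant replicates 1 and 2 lay within the wild-type range. Wild-type libraries averaged 45705 ± 1366 CPM (SD, n = 3) and mutants 47139 ± 2981 CPM (SD, n = 4), a ratio of 1.03.

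By name, B1_Mm summed to 8387, 8903 and 8914 CPM in the wild-type libraries and to 8938, 8780, 10112 and 9247 in the mutants. This is a log2 fold change of 0.086 with a standard error of 0.0565 (adjusted p = 0.414). For B1_Mus1 it was 0.034 with a standard error of 0.0577 (adjusted p = 0.755), and for B1_Mus2 0.036 with one of 0.0550 (adjusted p = 0.722). None of the 3 names passed the threshold of 0.1 in edgeR's quasi-likelihood test, none had an unadjusted p under 0.05, and none passed with DESeq2. Over all 831 names tested, 1 passed (0.12%), and the median log2 fold change was 0.094, so the 3 names did not stand above the general level of the names. The older names B1_Mur1 to B1_Mur4 had log2 fold changes between 0.00043 and 0.097, and B2_Mm1a, B2_Mm1t and B2_Mm2, the youngest of another SINE family, between 0.018 and 0.047.

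The same held inside and outside of genes. Inside, B1_Mm summed to 7334, 7789 and 7859 CPM in wild-type and 7864, 7783, 8751 and 8068 CPM in mutant libraries (log2 fold change 0.083, standard error 0.0533, adjusted p = 0.396). B1_Mus1 inside had means of 18251 ± 654.1 (SD, n = 3) and 18545 ± 1166 (SD, n = 4), and B1_Mus2 inside of 14652 ± 476.3 and 14927 ± 851.4, with log2 fold changes of 0.023 and 0.027 (adjusted p = 0.837 and 0.794). Outside, B1_Mus1 summed to 2263, 2383 and 2177 CPM in wild-type and 2303, 2296, 2745 and 2533 CPM in mutant libraries (log2 fold change 0.12, standard error 0.0681, adjusted p = 0.352). B1_Mm and B1_Mus2 outside had log2 fold changes of 0.10 (standard error 0.0919, adjusted p = 0.539) and 0.11 (standard error 0.0724, adjusted p = 0.428). All 6 sums overlapped between genotypes and none passed the threshold in edgeR (none had an unadjusted p under 0.05, and none passed with DESeq2), where 6.04% of 1539 sums by name and place did. The median over all names was 0.048 inside and 0.23 outside.

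**Figure D2:**
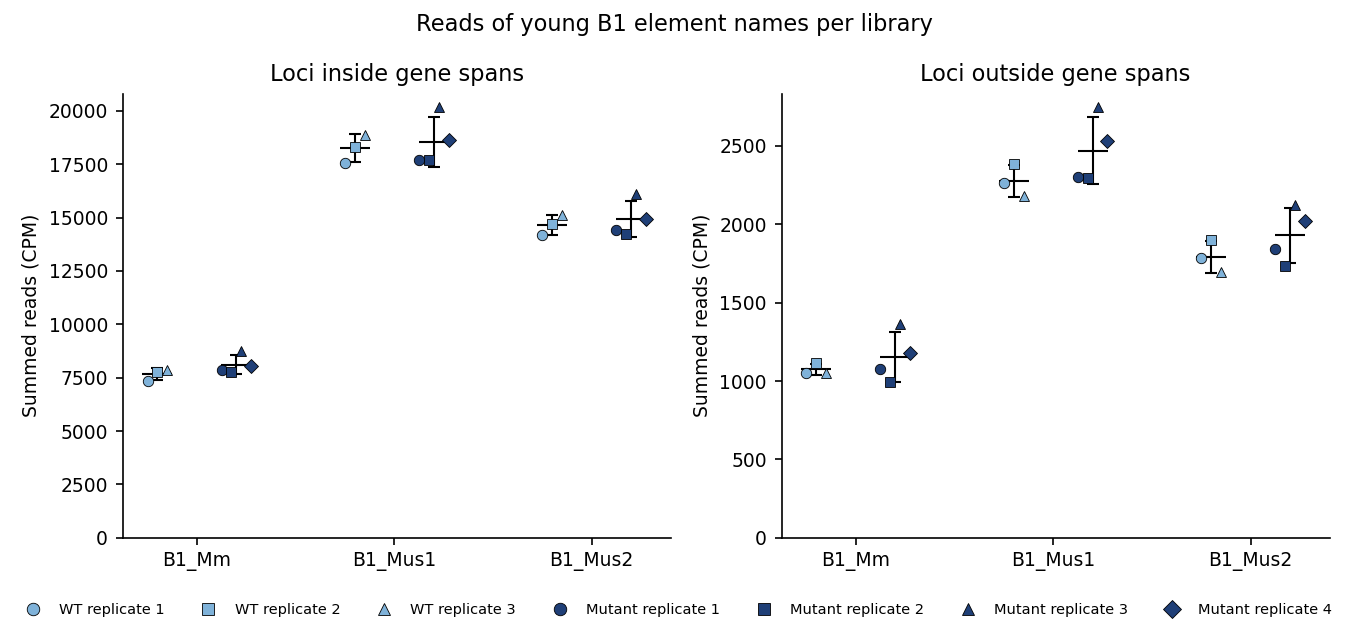
Summed reads (CPM) of B1_Mm, B1_Mus1 and B1_Mus2 loci inside (left) and outside (right) gene spans. Each symbol is 1 library, with mean ± SD per genotype; wild-type and mutant libraries overlap for all 6 sums, and mutant replicate 3 is the highest mutant library inside and outside.

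**Figure D3:**
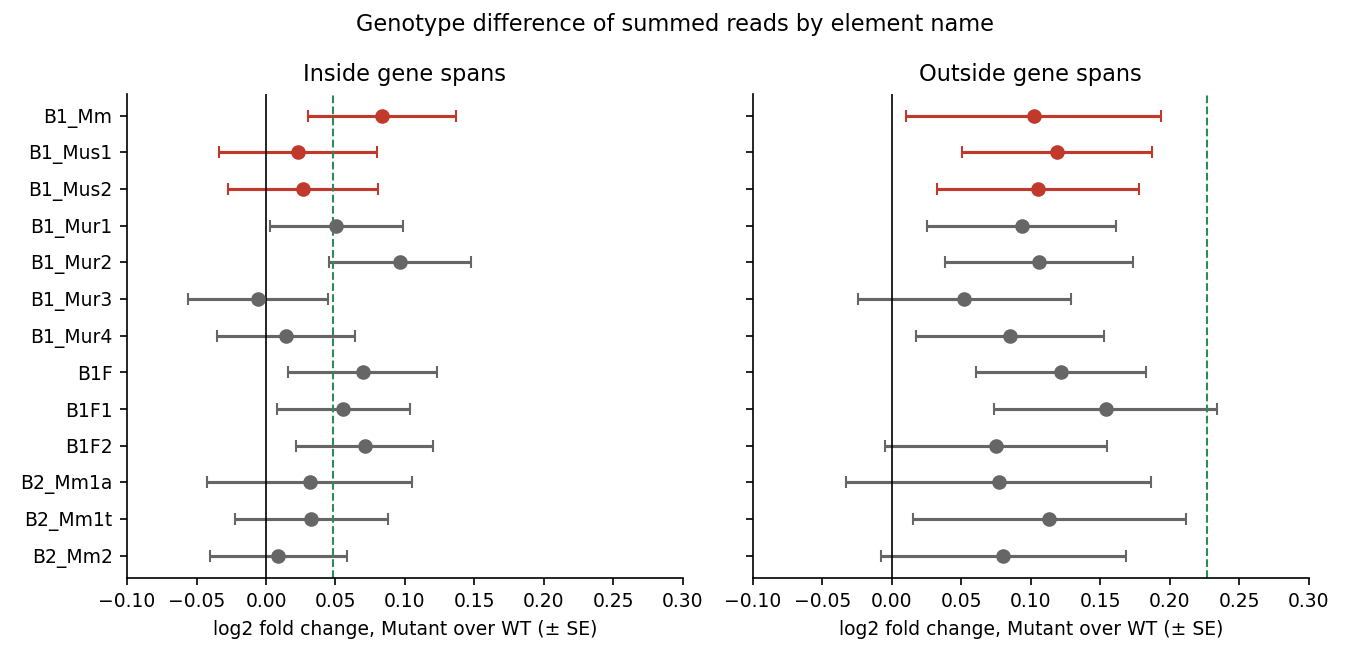
Log2 fold change, mutant over wild-type, with its standard error for the young B1 names (red) and for older B1 and B2 names (grey), inside (left) and outside (right) gene spans. The solid line marks 0 and the dashed line the median of all names in that place (0.048 inside, 0.23 outside); the young B1 names lie between 0.023 and 0.12.

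The difference between the places was then tested directly. The log2 fold change inside minus that outside was -0.010 for B1_Mm (standard error 0.0837, adjusted p = 0.947), -0.094 for B1_Mus1 (standard error 0.0741, adjusted p = 0.444) and -0.077 for B1_Mus2 (standard error 0.0789, adjusted p = 0.565). None passed the threshold in edgeR or had an unadjusted p under 0.05, where 8.03% of 722 names passed. The median over all names was -0.18. The ratio of inside to outside reads of B1_Mus2 was 7.94, 7.73 and 8.91 in wild-type and 7.84, 8.21, 7.61 and 7.39 in mutant libraries, with the highest ratio in the library labelled wild-type replicate 3.

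Loci far from genes had higher values in mutants for some names. When spans were widened by 10 kb on each side, B1_Mm loci outside of them summed to 190.1, 188.6 and 191.8 CPM in wild-type and to 236.6, 193.3, 261.2 and 244.3 CPM in mutant libraries. All mutant libraries were higher, mutant replicate 2 only just (log2 fold change 0.30, standard error 0.0971, adjusted p = 0.0962). B1_Mus2 loci there summed to 258.8, 277.1 and 244.9 CPM in wild-type and to 319.2, 267.1, 338.0 and 354.5 CPM in mutant libraries, which overlapped (log2 fold change 0.30, standard error 0.0967, adjusted p = 0.0962). For B1_Mus1 the value was 0.21, with a standard error of 0.0772 (adjusted p = 0.126). So 2 of the 3 names passed the threshold, where 29.0% of 680 names did, all higher in mutant. The median over those names was 0.35, above each of the young B1 names. The difference near minus far passed for B1_Mus2 (-0.26, adjusted p = 0.0801) and not for B1_Mm (-0.21, adjusted p = 0.147) or B1_Mus1 (-0.18, adjusted p = 0.180), where 27.9% of 677 names passed and the median was -0.29. Leaving out any library but mutant replicate 2 took B1_Mm back over the threshold, with adjusted p up to 0.208. B1_Mus2 passed without mutant replicate 2 and without wild-type replicate 2, and had adjusted p up to 0.236 without any other. Without mutant replicate 2, B1_Mus1 passed too (adjusted p = 0.0149). The near minus far call of B1_Mus2 was kept (adjusted p = 0.0140) when mutant replicate 2 was left out and lost when any other library was left out, with the highest adjusted p, 0.254, without wild-type replicate 3.

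Single loci were tested next, namely the 464695 loci of any name that reached 1 read per library on average. Of the young B1 loci, 25280 passed that filter, 22299 inside and 2981 outside, and 6883 of them had a mean under 1.5 reads. A further 9799 lay just below it, between 0.5 and 1 read. Among the 25280, 12 were past the threshold of 0.1 (0.0475%), 9 lower and 3 higher in the mutant, 11 inside and 1 outside. Over all loci 0.0807% were past it, 0.0594% lower and 0.0213% higher, so the share of the young B1 loci was not above that of all loci. The median log2 fold change of the young B1 loci tested was -0.038, against 0.022 over all loci, and 48.3% were positive against 51.2%. Mutant libraries were all higher than wild-type at 679 young B1 loci (2.69%; 3.12% over all loci) and all lower at 818 (3.24%; 2.84% over all loci). An unadjusted p under 0.05 was found at 1117 young B1 loci (4.42%), against 4.74% of all loci. Inside genes, 3 young B1 loci were higher and 8 lower (0.0493% together), where 0.0467% of all inside loci were past the threshold, 0.0156% higher and 0.0311% lower. Mutants were all higher at 582 inside loci (2.61%; 2.96% of all inside loci) and all lower at 744 (3.34%; 2.97%), and 969 had an unadjusted p under 0.05 (4.35%; 4.47%). Outside, 1 of 2981 young B1 loci was lower (0.0335%) and 0 were higher in edgeR, where 0.265% of all outside loci were past the threshold, 0.0524% higher and 0.212% lower. Mutants were all higher at 97 outside loci (3.25%; 3.96%) and all lower at 74 (2.48%; 2.12%), and 148 had an unadjusted p under 0.05 (4.96%; 6.18%). Older B1 loci had 18 past the threshold of 39443 tested (0.0456%), and B2_Mm1a, B2_Mm1t and B2_Mm2 had 6 of 21134 (0.0284%). DESeq2 called 15 of all 464695 loci, 2 of them young B1 loci, and gave no adjusted p for 3 of the 12.

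**Figure D4:**
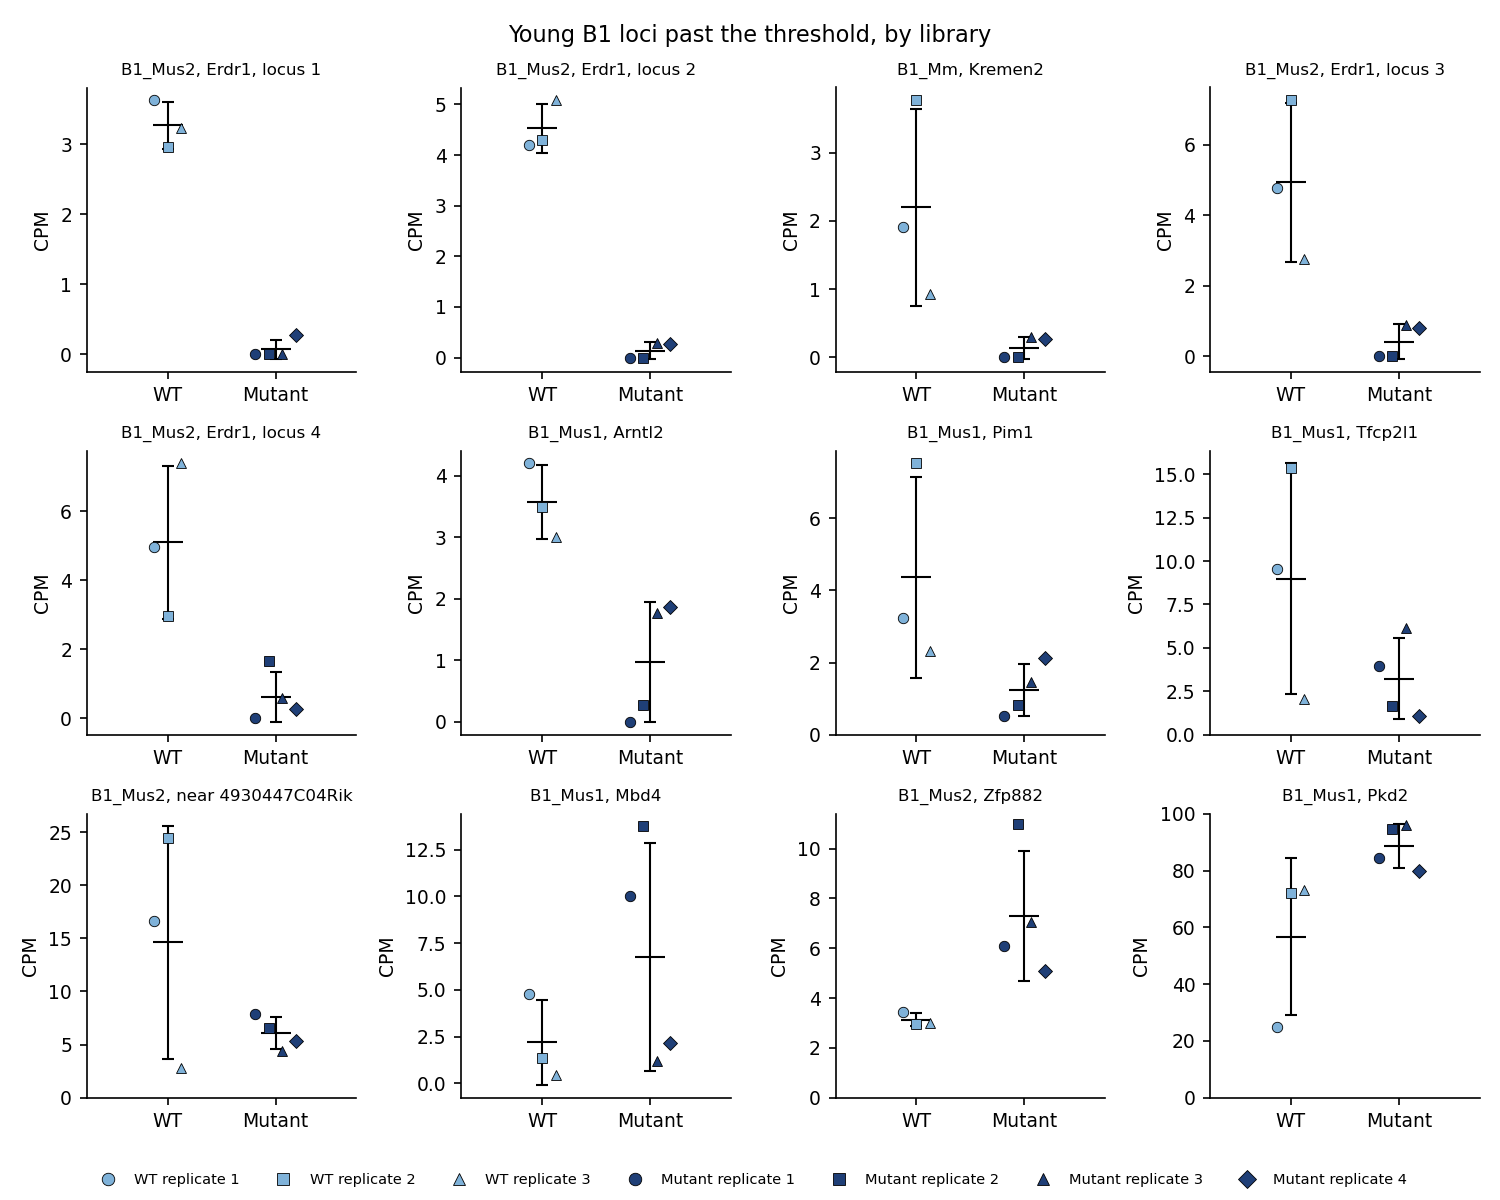
Reads (CPM) of the 12 young B1 loci past the threshold of 0.1 in edgeR, by library, with mean ± SD per genotype. The 4 *Erdr1* loci and the *Kremen2*, *Arntl2* and *Pim1* loci are lower in every mutant library, those of *Zfp882* and *Pkd2* higher in every one, and the other 3 overlap.

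Of the 9 lower loci, 4 lay in 1 gene. They are B1_Mus2 elements on the minus strand of chromosome Y in introns of *Erdr1* (erythroid differentiation regulator), which lies in the pseudoautosomal region that chromosomes X and Y share. The locus at chrY:90806301-90806444 had 19, 11 and 14 wild-type reads, against 0, 0, 0 and 1 in mutant libraries. It fell by 5.06 on the log2 scale (standard error 0.760, adjusted p = 2.49e-07), and the ratio of mutant to wild-type reads was 0.0207 (95% exact counting interval 0.000513 to 0.122).

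The locus at chrY:90798195-90798338 had 22, 16 and 22 reads against 0, 0, 1 and 1, which gave a log2 fold change of -4.75 (adjusted p = 4.42e-10) and a ratio of 0.0304 (interval 0.00360 to 0.115). The locus at chrY:90801474-90801617 had 25, 27 and 12 reads against 0, 0, 3 and 3 (log2 fold change -3.46, adjusted p = 4.95e-08). The locus at chrY:90809247-90809360 had 26, 11 and 32 reads against 0, 6, 2 and 1 (log2 fold change -3.00, adjusted p = 3.19e-07). All 4 loci were lower in every mutant library than in any wild-type library, and the intervals cover counting error only.

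Across the *Erdr1* span there are 16 young B1 loci. The first 7 in order of position had no read in any library, 8 were tested, and the remaining locus had 3, 2 and 0 reads in wild-type and none in the mutants. The 4 tested loci that were not past the threshold had log2 fold changes between -2.89 and -1.03. The locus at chrY:90804592-90804705 differed from its neighbours, with 17, 13 and 21 reads in wild-type and 0, 0, 17 and 10 in mutant libraries (log2 fold change -1.03, adjusted p = 0.775). Summed over the 16 loci, the wild-type libraries had 139, 93 and 127 reads, and the mutants 0, 6, 32 and 17.

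The other 18 LINE, SINE and LTR loci of the *Erdr1* span summed to 130.9, 153.9 and 198.5 CPM in wild-type and to 1.06, 11.6, 139.7 and 33.6 CPM in mutant libraries. Of the 12 tested, 9 were past the threshold and lower in the mutant, and none was higher. Mutant replicate 3 reached the wild-type range in this sum, while the sum of its young B1 loci in the span did not. FPKM of *Erdr1* was listed at 0 in all 7 libraries. Young B1 loci on chromosome Y outside the *Erdr1* span had 436, 399 and 388 reads in wild-type and 409, 413, 451 and 463 in mutant libraries, with no separation of the groups.

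**Figure D5:**
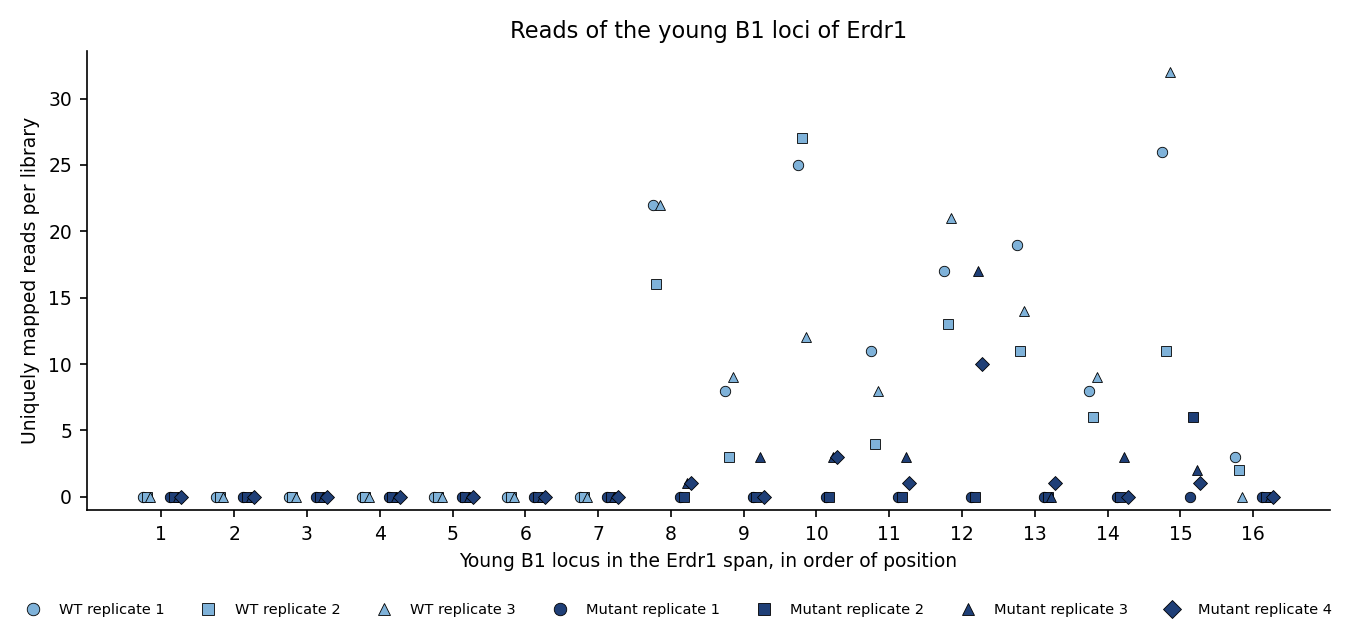
Uniquely mapped reads of the 16 young B1 loci in the *Erdr1* span, in order of position, with 1 symbol per library. Wild-type libraries (pale) reach 32 reads and mutant libraries (dark) stay at 6 or less, except at the twelfth locus, where mutant replicates 3 and 4 have 17 and 10 reads.

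The other lower loci each lay in or beside a different gene, and 4 of the 5 in a UTR. The B1_Mm at chr17:23741284-23741412 overlaps a UTR of *Kremen2*, a receptor for Dickkopf proteins that dampens Wnt signalling. It had 10, 14 and 4 reads in wild-type and 0, 0, 1 and 1 in mutant libraries (log2 fold change -3.69, standard error 0.778, adjusted p = 0.00584; ratio 0.0651, counting interval 0.00752 to 0.258). *Kremen2* was measured at 3.48, 3.80 and 0.671 FPKM in wild-type and at 0.882, 0.246, 0.389 and 0.275 FPKM in mutant libraries (adjusted p = 0.186 from limma, and 0.00681 without wild-type replicate 3). The library labelled wild-type replicate 3 was within the mutant range for the gene and above it for the locus. Without wild-type replicate 2 the locus was not past the threshold (adjusted p = 0.532).

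The remaining lower loci fall outside the rule that chose the largest changes and are named after their values were seen. The B1_Mus1 at chr6:146833007-146833157 overlaps a UTR of *Arntl2*, a transcription factor of the circadian clock. It had 22, 13 and 13 reads against 0, 1, 6 and 7 (log2 fold change -1.87, adjusted p = 0.0586), and *Arntl2* had 3.80, 3.33 and 1.90 FPKM against 0.290, 0.431, 2.03 and 1.78. The B1_Mus1 at chr17:29493511-29493639 overlaps a UTR of *Pim1*, a serine/threonine kinase. It had 17, 28 and 10 reads against 2, 3, 5 and 8 (log2 fold change -1.75, adjusted p = 0.0406). *Pim1* had 25.2, 20.3 and 12.8 FPKM against 11.95, 10.7, 9.30 and 10.7, lower in every mutant library (exact permutation test, p = 0.0286, the smallest it can give; adjusted p = 0.173 from limma, and 0.00681 without wild-type replicate 3). Neither locus held its call in every leave-out: *Arntl2* lost it without wild-type replicate 1 or 2 or mutant replicate 1 or 2 (adjusted p up to 0.689), and *Pim1* without wild-type replicate 2 or mutant replicate 1 or 2 (up to 0.917).

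At the last pair of lower loci the library labelled wild-type replicate 3 was within the range of the mutants or below it. The B1_Mus1 at chr1:118678857-118678997 overlaps a UTR of *Tfcp2l1*, a transcription factor of pluripotent cells. It had 50, 57 and 9 reads in wild-type and 15, 6, 21 and 4 in mutant libraries (log2 fold change -1.47, adjusted p = 0.00128). *Tfcp2l1* followed with 3.81, 5.71 and 1.12 FPKM against 1.78, 1.41, 1.39 and 1.13, and the 135 other repeat loci of its span with 59.6, 104.9 and 20.1 CPM against 35.9, 24.5, 30.2 and 21.9. The 1 outside locus, a B1_Mus2 at chr12:72880655-72880800, lies 309 bases from *4930447C04Rik*. It had 87, 91 and 12 reads against 30, 24, 15 and 20 (log2 fold change -1.25, adjusted p = 0.000617), and *4930447C04Rik* had 15.8, 19.8 and 4.10 FPKM against 8.36, 6.71, 5.34 and 5.37. Without wild-type replicate 3, both genes passed the threshold in limma (adjusted p = 0.00992 for each), as 722 of 14019 genes did. The genotypes overlapped at both loci (exact permutation tests, p = 0.171 and 0.200). Both lost their call without wild-type replicate 2 (adjusted p = 0.891 for each), and *Tfcp2l1* also without mutant replicate 4 (0.147). In the summed germ cell markers given above, the library labelled wild-type replicate 3 was likewise below wild-type replicates 1 and 2, and also below mutant replicate 1. The order of the libraries was otherwise not the same, and the part of these markers in both results was not tested.

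The 3 higher loci all overlapped UTRs, on the strand of their gene, and none of their host genes passed the threshold in limma. The B1_Mus1 at chr6:115840987-115841097 in *Mbd4*, a DNA glycosylase that repairs mismatches at methylated CpG sites, had 25, 5 and 2 reads in wild-type and 38, 50, 4 and 8 in mutant libraries (log2 fold change 1.52, adjusted p = 0.00629). The genotypes overlapped, since mutant replicates 1 and 2 were high and replicates 3 and 4 were not (exact permutation test, p = 0.314). *Mbd4* had means of 4.88 ± 0.926 (SD, n = 3) and 4.59 ± 0.389 FPKM (SD, n = 4).

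The B1_Mus2 at chr8:71916135-71916281 in *Zfp882*, a zinc finger gene, had 18, 11 and 13 reads against 23, 40, 24 and 19 (log2 fold change 1.20, adjusted p = 0.0931), all mutants higher. The B1_Mus1 at chr5:104504350-104504468 in *Pkd2*, the cation channel polycystin-2, had 24.8, 72.1 and 73.2 CPM in wild-type and 84.5, 94.6, 96.0 and 79.8 CPM in mutant libraries (log2 fold change 0.65, adjusted p = 0.0970). Wild-type replicate 1 was far below the other wild-type libraries at this locus, and without it the call was lost (adjusted p = 0.948). *Zfp882* had a log2 fold change of 0.088 (adjusted p = 0.650) and *Pkd2* of 0.077 (adjusted p = 0.608) in limma. The *Mbd4* call was lost without wild-type replicate 2 or 3 or mutant replicate 1 or 2 (adjusted p up to 0.871). The *Zfp882* call was lost without any library but mutant replicate 4 (up to 0.843), and the *Pkd2* call was also lost without any 1 of the mutant libraries (up to 0.411).

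The young B1 loci with the most reads were not those that differed. The highest was a B1_Mm of 42 bases at chr8:72152560-72152601 in a UTR of *Tpm4*, a tropomyosin of the actin cytoskeleton. It had 789.7, 1131 and 923.7 CPM in wild-type and 1172, 1098, 1270 and 1191 CPM in mutant libraries (log2 fold change 0.32, adjusted p = 0.935). *Tpm4* itself had 312.5, 345.0 and 331.1 FPKM against 372.6, 363.7, 354.9 and 373.0, higher in every mutant library (adjusted p = 0.285 from limma). The *Malat1* copy printed above, in the exon of a nuclear long non-coding RNA, had 715.2, 561.1 and 577.7 CPM against 475.8, 566.0, 704.3 and 601.2 (log2 fold change -0.075, adjusted p = 0.980). The other 3 loci with the most reads inside genes were B1_Mus1 elements in UTRs of *Ghitm*, *Fam96a* and *Gmfb*, with means between 245.1 and 356.7 CPM in either genotype and log2 fold changes between 0.057 and 0.22, none past the threshold.

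Outside gene spans, 4 of the 5 loci with the most reads lay within 10 kb of a span and overlapped a UTR in the GENCODE annotation. A B1_Mus2 of 114 bases, 269 bases from *Zdhhc2* (a palmitoyltransferase), had 83.6, 71.6 and 87.0 CPM in wild-type and 112.0, 92.4, 113.6 and 97.4 CPM in mutant libraries. All mutants were higher, without passing the threshold over all loci (log2 fold change 0.36, adjusted p = 0.901). The loci 1227 bases from *Appbp2*, 2005 bases from *Nudt21* (a subunit of the pre-mRNA cleavage factor) and 677 bases from *Exoc4* (a subunit of the exocyst) had log2 fold changes of 0.058, 0.33 and 0.097. *Appbp2* itself had means of 68.8 ± 2.50 (SD, n = 3) and 58.2 ± 1.41 FPKM (SD, n = 4), lower in every mutant library, with adjusted p = 0.168 from limma and 0.0453 without wild-type replicate 3. The fifth, a B1_Mus1 of 97 bases, lay 358117 bases from the nearest span, that of *Sucla2*, in an intron annotated by GENCODE. It had 75.2, 100.6 and 91.9 CPM in wild-type and 92.9, 83.1, 95.1 and 85.7 CPM in mutant libraries, while the 11 other repeat loci within 5 kb stayed under 1 CPM.

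The 5 loci whose sequences are printed above showed no call either. The *Taf1d* copy, in a transcript with a retained intron, had 592, 285 and 427 reads in wild-type and 257, 331, 381 and 342 in mutant libraries (log2 fold change -0.089, adjusted p = 0.980). The *Sfpq* copy had 21.6, 28.2 and 25.4 CPM against 31.4, 33.6, 34.9 and 33.6, higher in every mutant library (log2 fold change 0.42, adjusted p = 0.889). The *Plaa* and *Dleu2* copies had log2 fold changes of 0.11 and 0.25.

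Genes that act on SINE RNA were looked at in the FPKM table, as 4 lists of 47 genes, all of which were tested. None passed the threshold of 0.05 in limma, where 1 of 13988 genes did (0.00715%). An unadjusted p under 0.05 was found for 11 of the 47, a larger share than the 17.0% of all genes. No test of the lists as sets was run. The median log2 fold change over all genes was 0.0084. RNA polymerase III, which transcribes B1 elements from their own promoter, had 9 of 11 subunits with a negative log2 fold change (median -0.13), 2 of them with an unadjusted p under 0.05 and none higher. *Polr3a*, its largest subunit, had 10.2, 8.72 and 8.19 FPKM in wild-type and 7.16, 7.28, 7.50 and 6.81 FPKM in mutant libraries (log2 fold change -0.31, standard error 0.0883, adjusted p = 0.186). *Polr3k*, the highest of the list at a mean of 30.7 FPKM, had a log2 fold change of 0.050.

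Among the 10 genes of TFIIIB and TFIIIC, which place the polymerase at the A and B boxes, and the repressor MAF1, 8 were negative (median -0.063) and 3 had an unadjusted p under 0.05. *Gtf3c3* had 35.9, 31.1 and 27.5 FPKM against 26.0, 22.8, 25.04 and 23.7 (log2 fold change -0.36, adjusted p = 0.180 from limma). It alone of the 47 genes passed when the library labelled wild-type replicate 3 was left out (adjusted p = 0.0309 from limma). In that leave-out 722 of all 14019 genes tested passed. *Tbp* had a log2 fold change of -0.20 and *Maf1* of 0.023. Of the 10 genes for proteins that bind, edit or cut SINE RNA, 7 were negative (median -0.11) and 1 had an unadjusted p under 0.05. *Ssb*, which encodes the La protein that binds the 3′ end of polymerase III transcripts, had 238.0, 258.6 and 229.5 FPKM against 220.7, 204.8, 222.9 and 211.9 (log2 fold change -0.17, adjusted p = 0.262). *Srp14*, of the signal recognition particle, had a log2 fold change of 0.22 (adjusted p = 0.304).

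Of the 16 genes for chromatin and DNA methylation at SINEs, 13 were negative (median -0.10), 4 of them with an unadjusted p under 0.05, and 1 was positive with such a p. *Hells*, a chromatin remodeller needed for DNA methylation of repeats, had 112.5, 87.6 and 102.1 FPKM against 68.3, 75.3, 83.3 and 76.7 (log2 fold change -0.40, standard error 0.0986, adjusted p = 0.169). *Suv39h2*, a histone H3 lysine methyltransferase, had 16.4, 14.8 and 15.5 FPKM against 12.8, 12.6, 12.8 and 13.2 (log2 fold change -0.26, adjusted p = 0.169). *Trim28*, the highest of the list at a mean of 211.6 FPKM, had a log2 fold change of -0.11 (adjusted p = 0.731). Both *Hells* and *Suv39h2* were lower in every mutant library, which 7.59% of all genes tested were. Of the 47 genes, 9 were lower in every mutant library, a larger share than the 7.59% of all genes. In the other direction 1 was higher in every mutant library, a smaller share than the 7.31% of all genes.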

How the data were processed

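Whole-testis RNA-Seq libraries (3 wild-type, 4 *Glis3* mutant) were grouped and numbered by their labels. The authors aligned reads to mm10 with TopHat2 2.0.12 (the version in the submitters' processing notes), kept unique hits and deposited raw counts per RepeatMasker locus made with HTSeq; FPKM per RefSeq gene were made by the authors with Cuffnorm. Of the per-sample columns, 0 were left out. Both header lines lack 1 tab, and columns were taken in the order of their names.

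Loci averaging 1 read or more went into edgeR's quasi-likelihood test (version 4.0.16, R 4.3.3, two-sided, TMM scaling) at a threshold of 0.1. CPM are reads divided by the effective (TMM-scaled) library size. Counts were summed by element name, and by name and place, and tested with the same library sizes for sums with a mean of at least 10 reads. Inside minus outside was the interaction of place and genotype over 14 columns with library as a block. For genes averaging 0.5 FPKM or more, limma 3.58.1 (trend) was run on log2(FPKM + 0.5); fold changes on this scale understate changes of low genes. P-values were adjusted by Benjamini-Hochberg over all features tested. Exact permutation tests were two-sided, on the absolute difference of means over 35 splits (smallest p 0.0286). DESeq2 1.42.0 was an alternative.

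Loci were placed with bedtools 2.31.1, GENCODE M21 and RefSeq GRCm38.p6 tables (Python 3.11.15). Named loci were, where over 10 were past the threshold, up to 5 largest rises and 5 largest falls, plus the 5 with the highest CPM inside and outside; named genes were their hosts, or the nearest within 10 kb, and in each list the 2 with the smallest p and the highest mean. Of the list genes and sequences so chosen, 1 gene and 1 locus are not reported here. Members, lists and rules were chosen with earlier results of these data known. Markers of interstitial, endothelial, blood, macrophage, mast and skeletal muscle cells, listed too, had no gene past the threshold in limma. An unadjusted p under 0.05 was found for 1 of these genes (mast cell), where 17.0% of all genes tested had one. Alternatives were other normalizations and filters, a threshold of 0.05, a replicate block, other definitions of inside, other pseudocounts, and leaving out each library.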

Additional observations from a re-analysis of the deposited data

Results flagged for a closer look

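In 62 sets of 4 mutant values (sums, named loci, named and host genes), 3 had a library far from the other 3 by Dixon's ratio at its 95% critical value. Chance gives about 1 in 20 for independent sets, and these were not independent, since loci and their host genes are both among them. The *Erdr1* locus at chrY:90806301-90806444 had 0.267 CPM in mutant replicate 4, which is 1 read, and 0 in the other mutants. With 3 values at 0 the ratio is 1 for any other value, so this flag carries no weight. The B1_Mus1 in *Gmfb* had 304.0 CPM in mutant replicate 3, against 234.3 to 245.3 in the other mutants. *Gmfb* itself, which encodes glia maturation factor beta, had 70.7 FPKM in mutant replicate 4, against 74.3 to 74.8 in the others.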

How the results depend on the processing

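Counts of young B1 loci past the threshold moved with the settings, and so did the counts over all loci. Of all loci, 375 passed in the main fit, 15 with DESeq2 and 284 without the filter. With the filter at 10 reads 17 of 60909 loci passed, and 193 to 617 loci did in the leave-outs. Lower loci (9) were 2 with DESeq2 and 2 with the filter raised to 10 reads, and 5 to 17 when 1 library was left out. Higher loci (3) were 0 with DESeq2, 1 without the filter, 0 with the filter at 10 reads, 1 at a threshold of 0.05, and 0 to 3 in the leave-outs. Inside loci (11) were 2 with DESeq2, 2 with the filter at 10 reads, and 6 to 16 in the leave-outs. The outside locus (1) gave 0 with DESeq2, 0 with the filter at 10 reads, and 0 to 2 in the leave-outs. The filter at 10 reads left 2710 young B1 loci to test; the cause of the other changes was not tested. At this depth 25280 of 208882 loci could be tested at all. Replicate numbers did not pair the libraries (same-number correlations 0.0381, -0.0807 and 0.0256 over loci, and 0.198, -0.177 and 0.229 over genes); with the replicate block 12 young B1 loci passed, 9 of them among the 12 reported, and 0 list genes did in limma.

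Scaling by library size alone moved the median of all loci from 0.022 to -0.055 and turned B1_Mus1 (-0.041 over all loci, -0.052 inside), B1_Mus2 (-0.040 and -0.048) and the loci at *Gmfb* (-0.012), *Appbp2* (-0.014) and *Sucla2* (-0.065). DESeq2's size factors turned B1_Mus1 inside (-0.0027) and the *Sucla2* locus (-0.022), which was also -0.020 with DESeq2, -0.029 without the filter and -0.049 with it at 10 reads. B1_Mm inside minus outside was 0.042 when only loci averaging 1 read were summed, and *Malat1* FPKM -0.066 with quantile normalization. With spans widened by 10 kb, B1_Mm outside (0.30), B1_Mus2 outside (0.30) and B1_Mus2 inside minus outside (-0.26) passed the threshold. The cause was not tested.

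With 1 library left out, log2 fold changes over all loci ranged from 0.038 to 0.11 for B1_Mm, -0.013 to 0.057 for B1_Mus1 and -0.0079 to 0.061 for B1_Mus2. In the same order of names they ranged inside from 0.042 to 0.10, -0.023 to 0.048 and -0.016 to 0.049, outside from 0.0092 to 0.17, 0.060 to 0.15 and 0.053 to 0.15, and for inside minus outside from -0.057 to 0.036, -0.13 to -0.038 and -0.12 to -0.015. In the widened fits, whose leave-outs were chosen after seeing the data, they ranged within 10 kb from 0.033 to 0.10, -0.018 to 0.053 and -0.013 to 0.055, farther out from 0.24 to 0.38, 0.16 to 0.27 and 0.24 to 0.37, and for near minus far from -0.27 to -0.18, -0.22 to -0.13 and -0.32 to -0.20. List genes past the threshold were 0 to 1. Values with no call that changed sign in a leave-out were the loci at *Malat1* (-0.18 to 0.047), *Gmfb* (-0.039 to 0.19), *Sucla2* (-0.11 to 0.075) and *Appbp2* (-0.030 to 0.14), and FPKM of *Polr3k* (-0.019 to 0.099), *Maf1* (-0.024 to 0.11), *Trim28* (-0.26 to 0.072), *Mbd4* (-0.18 to 0.062), *Malat1* (-0.045 to 0.096), *Ghitm* (-0.065 to 0.066), *Gmfb* (-0.099 to 0.012) and *Zdhhc2* (-0.0010 to 0.23).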

Other observations

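*G530011O06Rik*, a gene that the FPKM table places on chromosome X, was chosen after its values were seen, beside the *Erdr1* loci. It had 0.859, 0.699 and 0.890 FPKM in the wild-type libraries and 0.0407, 0.103, 0.0793 and 0.0795 FPKM in the mutants. The mutants were all lower, and its mean was under the filter of 0.5 FPKM, so that it was not tested with limma (exact permutation test, p = 0.0286, the smallest it can give). *Mid1*, whose span on chromosome X overlaps it, had 0.890, 0.861 and 0.883 FPKM against 1.22, 1.34, 0.797 and 0.595.

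The gene spans with the most young B1 loci were not those with the most young B1 reads. The span listed under the name *Bc1* in the FPKM table holds 196 loci with a sum of 19.3 reads per library. Those loci were counted as inside, and whether that span matches the *Bc1* gene was not tested. *Dmd*, the gene of dystrophin, holds 109 loci with 4.86 reads, and *Macf1*, a linker of actin and microtubules, holds 94 with 104.0. *Tpm4* holds 3 loci with 4236 reads per library, nearly all of them at the 42-base copy described above, and *Malat1* holds 1 locus with 2407.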
